A study of Mus musculus with 6 samples.

Results

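The genes described here encode the sensors of double-stranded and viral-type RNA in the cytosol and the endosome, with an adaptor, a ligase and an editing enzyme that act beside them. They are 9 rows of the 23420 in the count table, taken by name: Ddx58, Ifih1, Dhx58, Mavs, Eif2ak2, Zbp1, Tlr3, Adar and Trim25. Of these, 8 had counts high enough to be tested among 16067 genes, and Zbp1 did not. The libraries hold ribosome-bound RNA obtained by BacTRAP, the immunoprecipitation of ribosomes whose protein tag, GFP, is expressed from the Purkinje cell promoter Pcp2. The 3 cKO libraries came from mice carrying Pcp2-BacTRAP, Pcp2-Cre and Rbm17 f/-, that is, a floxed and a null allele of the splicing factor gene Rbm17. The 3 control libraries came from mice with Pcp2-BacTrap and Rbm17 f/+ and no Cre. All mice were C57BL/6 and 4 weeks old, each pull-down took 1 cerebellum, and the labels name cerebellar Purkinje neurons as the source. Cre and the null allele occur in cKO alone, so their parts in any difference cannot be told apart.

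RIG-I (from Ddx58) and MDA5 (from Ifih1) are cytosolic helicases that bind double-stranded or 5′-triphosphate RNA and signal through the mitochondrial adaptor MAVS towards type I interferon. LGP2 (from Dhx58) is a related helicase without signalling domains that tunes the other two, and the ubiquitin ligase TRIM25 acts on RIG-I. PKR (from Eif2ak2) halts translation when it binds double-stranded RNA, ZBP1 senses Z-form nucleic acid and can start cell death, TLR3 reads double-stranded RNA in the endosome, and ADAR1 edits adenosines in double-stranded RNA, which keeps the cell's own RNA from the sensors. Several of these genes are themselves induced by interferon.

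Rbm17 stood at 25.7, 25.6 and 26.3 CPM (counts scaled to TMM-adjusted library sizes) in the cKO libraries, against 41.2, 42.5 and 41.3 CPM in the control libraries, lower in every cKO library (log2 fold change -0.69, SE 0.09; edgeR adjusted p = 0.0016). The libraries held 140110897 to 160571518 gene counts. Markers are counted as risen or fallen at an edgeR adjusted p under 0.05, where 4.03% of all tested genes rose and 3.85% fell. Purkinje cell markers were lower in cKO, with 10 of 18 tested having fallen and 0 risen, and their summed level was 19964 to 22803 CPM in cKO and 32691 to 43604 CPM in control. Markers of microglia and macrophages were higher, with 10 of 20 having risen and 0 fallen, and their summed level was 239.9, 142.3 and 169.4 CPM in cKO against 75.2, 93.8 and 108.3 CPM in control. The complement gene C1qc stood at 20.8, 13.2 and 16.6 CPM in cKO and at 6.00, 6.96 and 6.81 CPM in control. The signalling adaptor gene Tyrobp stood at 6.14 ± 2.34 CPM in cKO and 0.781 ± 0.406 CPM in control, and the lysosomal gene Cd68 at 9.65 ± 1.84 CPM in cKO and 2.60 ± 1.09 CPM in control (SD, n = 3 each). P2ry12 and Tmem119, which mark resting microglia, had log2 fold changes of -0.02 and -0.10. None of these 5 microglial genes was at 0 in any library. Pcp2 itself stood at 399.0 ± 73.6 CPM in cKO and 1052 ± 42.9 CPM in control, and the astrocyte gene Gfap at 122.1 ± 43.0 CPM in cKO and 44.4 ± 4.38 CPM in control. The granule cell gene Cbln3 reached 1615 ± 503 CPM in cKO and 1718 ± 401 CPM in control (SD, n = 3), so the pull-down also held RNA of cells outside the label. Of astrocyte and Bergmann glia markers 1 of 13 rose and 2 fell, of oligodendrocyte markers 0 of 12 rose and 1 fell, and of interneuron markers 0 of 12 rose and 2 fell. The summed astrocyte and Bergmann glia level was 3946.8 to 4568.5 CPM in cKO and 5072.3 to 5744.7 CPM in control. The median log2 fold change of that list was -0.23, so Gfap went the other way from its list. Of 12 granule cell and 12 endothelial markers 0 passed edgeR's test, with 1 granule cell marker lower at an unadjusted p of 0.05 and by DESeq2, and 0 endothelial markers by either. In such bulk samples, more or fewer cells of a type and more or less RNA per cell cannot be told apart.

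Ddx58 and Eif2ak2 were the members that rose in cKO. Of the 8 tested, 2 passed upward and 0 downward in edgeR's quasi-likelihood test at a Benjamini-Hochberg adjusted p of 0.05, where 4.03% of all tested genes passed upward and 3.85% downward (7.87% in either direction). At an unadjusted p of 0.05, 3 were higher and 0 lower. Dhx58, 1 of these 3, had the 2778th smallest p of the 16067 genes (edgeR unadjusted p = 0.028). At least 2778 and fewer than 4642 of all genes, in either direction, thus reached an unadjusted p of 0.05. The upper bound is the rank of Ifih1 (edgeR unadjusted p = 0.091), and the exact count was not computed. DESeq2 called 2 members upward and 0 downward, where it called 1071 of all genes upward and 1036 downward. The median log2 fold change (cKO over control) of the 8 was 0.30, beside 0.01 over all genes tested. In 3 of the 8, Ddx58, Dhx58 and Eif2ak2, every cKO library lay above every control library, and in 0 did every one lie below, where the shares among all tested genes were 15.0% and 13.4%. The part of the 10 raised microglial markers in these counts was not tested.

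**Figure D1:**
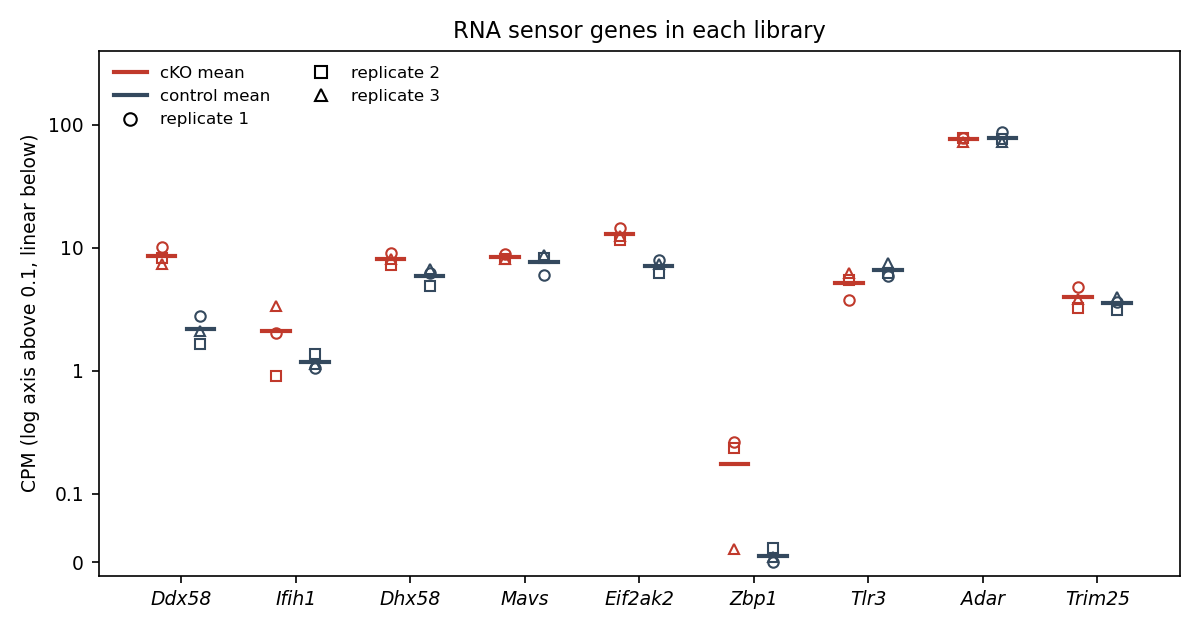
Level of each RNA sensor gene in every library (CPM on TMM-scaled library sizes, log axis above 0.1 and linear below), cKO left and control right, with each point 1 library and the bar the mean of 3. The 3 cKO libraries sit above the 3 control libraries in Ddx58, Dhx58 and Eif2ak2, and the groups overlap in the other 6 genes.

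Promoter windows are printed for the members whose windows hold an interferon response element core. Of these members, Ddx58 and Eif2ak2 rose in cKO, and Ifih1 and Adar did not pass the test. RefSeq promoter windows (GRCm38.p6, 250 bases before to 50 after the start) were matched for 7 of the 9 members. The letters searched on both strands were GAAANNGAAA, the core of interferon-stimulated response elements, and the closer-spaced GAAANGAAA. The first is held by 1131 of 32851 promoter windows of the mouse (3.44%), the second by 1040 (3.17%) and either one by 2061 (6.27%). Counted by gene, the shares of 27025 genes are 3.99%, 3.70% and 7.27%. The members were taken by name and several are known to be induced by interferon, so these shares do not make a test. Among the members, GAAANNGAAA was found in Ddx58, Ifih1 and Eif2ak2, and GAAANGAAA in Ddx58 and in the downstream start of Adar. The windows of Mavs, Tlr3 and Trim25 and 2 upstream windows of Adar held neither. Capitals mark the matches, which do not overlap each other, and all sequences run 5′ to 3′ on the gene's strand. A match is a description of these letters, not a measured binding site. The windows are chr4:40239776-40240075 (minus strand) for Ddx58, chr17:78882523-78882822 (minus strand) for Eif2ak2, chr2:62646206-62646505 (minus strand) for Ifih1 and chr3:89730468-89730767 (plus strand) for the downstream start of Adar.
Ddx58: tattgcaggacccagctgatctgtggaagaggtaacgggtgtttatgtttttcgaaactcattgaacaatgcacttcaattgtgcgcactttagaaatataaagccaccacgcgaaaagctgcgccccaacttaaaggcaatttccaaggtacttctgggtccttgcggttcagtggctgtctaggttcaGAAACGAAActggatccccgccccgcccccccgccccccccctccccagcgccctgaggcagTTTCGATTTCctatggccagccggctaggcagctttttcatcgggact
Eif2ak2: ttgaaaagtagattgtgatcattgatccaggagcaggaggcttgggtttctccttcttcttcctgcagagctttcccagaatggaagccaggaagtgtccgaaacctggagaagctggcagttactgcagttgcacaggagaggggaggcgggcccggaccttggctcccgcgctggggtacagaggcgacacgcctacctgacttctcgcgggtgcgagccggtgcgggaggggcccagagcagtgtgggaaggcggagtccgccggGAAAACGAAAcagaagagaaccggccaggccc
Ifih1: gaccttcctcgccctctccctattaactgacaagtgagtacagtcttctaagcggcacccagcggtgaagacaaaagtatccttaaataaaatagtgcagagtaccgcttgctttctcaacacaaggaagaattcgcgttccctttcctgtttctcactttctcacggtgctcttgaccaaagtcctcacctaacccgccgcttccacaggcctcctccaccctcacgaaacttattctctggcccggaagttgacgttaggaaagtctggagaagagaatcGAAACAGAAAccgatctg
Adar, downstream start: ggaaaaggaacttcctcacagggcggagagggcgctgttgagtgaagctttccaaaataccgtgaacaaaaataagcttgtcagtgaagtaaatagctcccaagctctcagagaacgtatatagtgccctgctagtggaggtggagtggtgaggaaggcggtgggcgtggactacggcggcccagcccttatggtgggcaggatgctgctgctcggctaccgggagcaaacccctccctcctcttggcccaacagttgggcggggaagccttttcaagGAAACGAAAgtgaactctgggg

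Ddx58, the gene of RIG-I (mm10 chromosome 4, 40203773 to 40239828, minus strand), had the largest change of the tested members. Its level was 10.1, 8.20 and 7.33 CPM in the cKO libraries, against 2.79, 1.64 and 2.105 CPM in the control libraries. The lowest cKO library thus lay well above the highest control library. The means were 8.55 ± 1.43 CPM in cKO and 2.18 ± 0.576 CPM in control (SD, n = 3 each), a ratio of 3.93. The log2 fold change was 1.97 (SE 0.23; edgeR adjusted p = 0.0010), the 101st smallest p of all genes tested. The call held in each of 14 alternative settings, with log2 fold changes between 1.79 and 2.19 and adjusted p between 2.5e-13 and 0.0060. cKO replicate 1 was the highest library in Ddx58 and also in the summed microglial markers. The other libraries did not share this order. The lowest cKO library was replicate 3 in Ddx58 and replicate 2 in the microglial sum. Control replicate 1 was the highest control library in Ddx58 and the lowest in the microglial sum. The part of the microglial cells in the level of Ddx58 was not tested.

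The other RIG-I-like receptors did not pass the test. Ifih1, the gene of MDA5 (chromosome 2, 62595798 to 62646255, minus strand), stood at 2.02, 0.909 and 3.38 CPM in cKO and at 1.06, 1.36 and 1.12 CPM in control. cKO replicate 2 lay below all 3 control libraries and cKO replicates 1 and 3 above them, so the groups overlapped. The log2 fold change was 0.83 (SE 0.44; edgeR adjusted p = 0.31). Dhx58, the gene of LGP2 (chromosome 11, 100694884 to 100704271, minus strand), stood at 9.03, 7.24 and 8.07 CPM in cKO and at 6.24, 4.86 and 6.68 CPM in control. All 3 cKO libraries were above all 3 control libraries, by a log2 fold change of 0.45 (SE 0.18; edgeR adjusted p = 0.16). The annotated gene Dhx58os overlaps Dhx58 on the other strand and has no row of its own in the count table, and the sources used here do not give the counting's strand setting, so the Dhx58 count is uncertain.

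The adaptor and the ligase of the RIG-I-like receptors overlapped between the groups. Mavs (chromosome 2, 131234063 to 131248025, plus strand) stood at 8.89, 8.12 and 8.14 CPM in cKO and at 5.96, 8.18 and 8.66 CPM in control, a log2 fold change of 0.14 (SE 0.17; edgeR adjusted p = 0.70). Control replicate 1 was its lowest library, and without that library the log2 fold change was -0.0088. Trim25 (chromosome 11, 88999376 to 89020293, plus strand) stood at 4.82, 3.26 and 3.82 CPM in cKO and at 3.61, 3.13 and 3.96 CPM in control, a log2 fold change of 0.15 (SE 0.23; edgeR adjusted p = 0.76). Without cKO replicate 1, its highest library, the value was -0.0096.

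Eif2ak2, the gene of the translation-halting kinase PKR (chromosome 17, 78852564 to 78882573, minus strand), rose in cKO. Its level was 14.5, 11.5 and 12.6 CPM in the cKO libraries, against 8.001, 6.18 and 7.32 CPM in the control libraries. The groups did not overlap, and the means were 12.9 ± 1.51 CPM in cKO and 7.17 ± 0.919 CPM in control (SD, n = 3 each), a ratio of 1.79. The log2 fold change was 0.84 (SE 0.16; edgeR adjusted p = 0.0097). The call was lost without control replicate 2, its lowest library (log2 fold change 0.73; edgeR adjusted p = 0.052), and the adjusted p in the other alternatives was between 5.0e-05 and 0.042. The annotated genes Gm26637 and n-R5s29 overlap it on the other strand, so its count too is uncertain as to strand.

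Zbp1 (chromosome 2, 173206612 to 173218923, minus strand), the sensor of Z-form nucleic acid, was near silent in control and was left out by the filter on low counts. It had 43, 35 and 3 counts in the cKO libraries and 0, 3 and 1 in the control libraries. cKO replicates 1 and 2 thus stood apart, and cKO replicate 3 had as many counts as the highest control library. The 81 pooled cKO counts against 4 pooled control counts correspond to a 17.7-fold ratio (95% counting interval 6.66 to 66.6, which leaves out the spread between mice). Without cKO replicate 3 the ratio was 26.0 (9.77 to 98.0), and for cKO replicate 3 alone it was 1.90 (0.279 to 11.2). With no count filter edgeR gave an adjusted p of 0.16, and DESeq2 gave an adjusted p of 0.062.

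The endosomal receptor and the editing enzyme did not pass the test. Tlr3 (chromosome 8, 45395665 to 45411080, minus strand) stood at 3.75, 5.49 and 6.28 CPM in cKO and at 5.91, 6.18 and 7.56 CPM in control. cKO replicates 1 and 2 lay below all control libraries and cKO replicate 3 within them, and the log2 fold change was -0.34 (SE 0.22; edgeR adjusted p = 0.41). Adar (chromosome 3, 89715022 to 89753446, plus strand) stood at 77.7, 78.3 and 72.6 CPM in cKO and at 86.8, 76.1 and 72.6 CPM in control. The groups overlapped almost fully, with a log2 fold change of -0.04 (SE 0.10; edgeR adjusted p = 0.85). The annotated genes Gm45542 and Chrnb2 overlap Tlr3 and Adar on the other strand, so these counts too are uncertain as to strand.

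Per length of annotated exons, Adar was the most abundant member in both groups, at 9.39 ± 0.380 CPM per kb in cKO and 9.67 ± 0.909 CPM per kb in control (SD, n = 3 each). In cKO it was followed by Eif2ak2, Mavs and Dhx58 at 2.52, 2.51 and 2.48 CPM per kb, whose ranges overlapped. Below them came Ddx58, Tlr3 and Trim25 at 1.21, 0.993 and 0.689 CPM per kb, with overlapping neighbours, then Ifih1 at 0.257 and Zbp1 at 0.0492 CPM per kb, each apart from the one above it. In control the order after Adar was Mavs, Dhx58, Eif2ak2 and Tlr3 at 2.27, 1.81, 1.40 and 1.26 CPM per kb, with overlapping neighbours, then Trim25 at 0.620, Ddx58 at 0.309, Ifih1 at 0.145 and Zbp1 at 0.00265 CPM per kb, each apart from its neighbours. Ddx58 thus ranked 5th in cKO and 7th in control, where Trim25 and Tlr3 stood above it. The place of Dhx58 rests on the uncertain count described above.

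Reads that span annotated introns give a second measure of the same libraries, though not an independent one. Tested across 14710 genes, of which 2.90% rose and 2.82% fell, Ddx58 and Eif2ak2 again rose and 0 of the 8 members fell (1, Tlr3, was lower at an unadjusted p of 0.05). Ddx58 had 917, 674 and 740 spliced reads in cKO and 170, 157 and 181 in control, a log2 fold change of 2.02 (SE 0.21; edgeR adjusted p = 9.5e-04). The rise ran along most of the gene. Scaled to each library's junction reads, 14 of its 18 annotated junctions were higher in every cKO library than in every control library. The junctions nearest the 5′ end overlapped, with 14, 11 and 4 reads over the first intron in cKO and 8, 3 and 0 in control. Eif2ak2 had 1313, 1227 and 1095 spliced reads in cKO and 567, 419 and 699 in control, a log2 fold change of 0.93 (SE 0.22; edgeR adjusted p = 0.036), and 9 of its 16 annotated junctions lay apart upward. Junctions of 1 gene in the same libraries are not separate support, and the share apart over all junctions was not computed. By gene, the groups lay apart in 4 of the 8 members, where 27.8% of all genes so tested were apart in either direction and 7.76% downward.

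**Figure D2:**
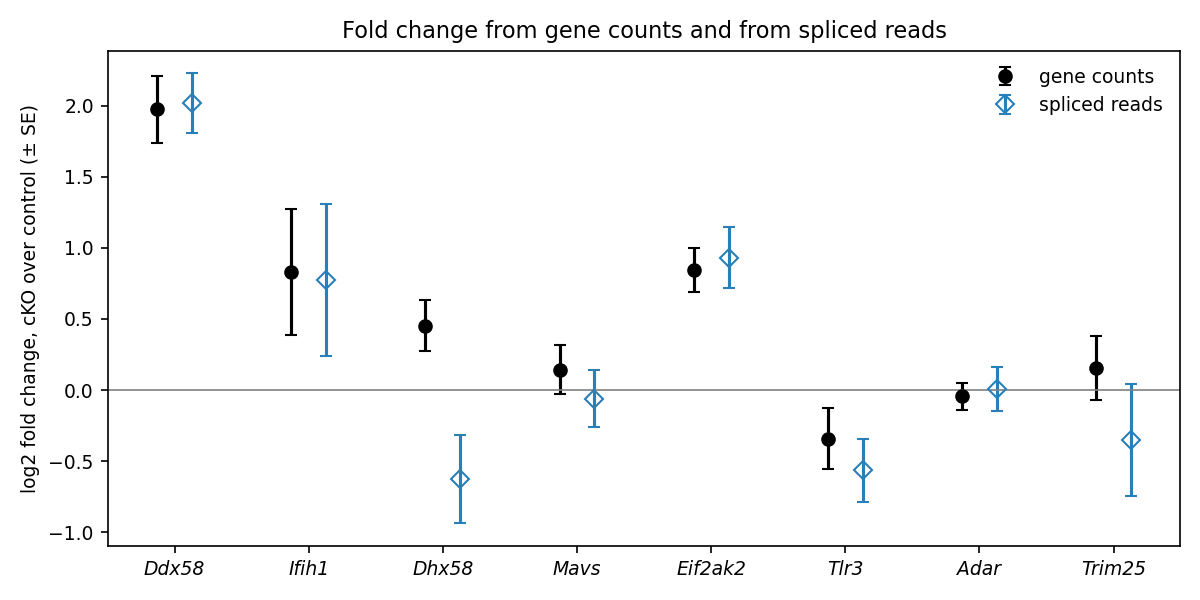
Log2 fold change (cKO over control) of each tested member from gene counts and from spliced reads on annotated introns, with points at the estimate and bars of ± 1 SE. Ddx58 lies near 2 and Eif2ak2 near 0.9 in both readouts, whereas Dhx58 is at 0.45 from gene counts and at -0.63 from spliced reads.

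Dhx58 moved in opposite directions in the 2 measures, neither past the threshold. Its spliced reads numbered 163, 140 and 160 in cKO and 195, 165 and 271 in control, and scaled to junction reads every cKO library lay below every control library (log2 fold change -0.63, SE 0.31; edgeR adjusted p = 0.31). Per 100 gene counts it had 11.1, 13.1 and 12.2 spliced reads in cKO and 23.9, 23.6 and 29.2 in control. The groups were well apart, with means of 12.1 ± 0.988 in cKO and 25.6 ± 3.18 in control (SD, n = 3 each). The log2 ratio of spliced reads to counts changed by -1.06 (95% confidence interval -1.45 to -0.67), which missed the threshold over the 12694 genes tested (limma adjusted p = 0.067), where 0.323% of genes passed. Without each library in turn the change was between -1.12 and -0.95, with an adjusted p of 0.13 to 0.24. Mavs also had its groups apart in this ratio, at 56.2, 58.2 and 48.9 spliced reads per 100 counts in cKO and 61.7, 64.9 and 63.3 in control (limma adjusted p = 0.57), and 9.55% of all genes were apart downward. Most spliced reads of Dhx58 lay toward the 3′ end in both groups. The first intron had 9, 0 and 1 reads in cKO and 0, 0 and 0 in control. The last had 26, 31 and 22 in cKO and 51, 58 and 61 in control. Which reads of Dhx58 lie outside annotated introns, or come from the overlapping Dhx58os, was not tested.

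**Figure D3:**
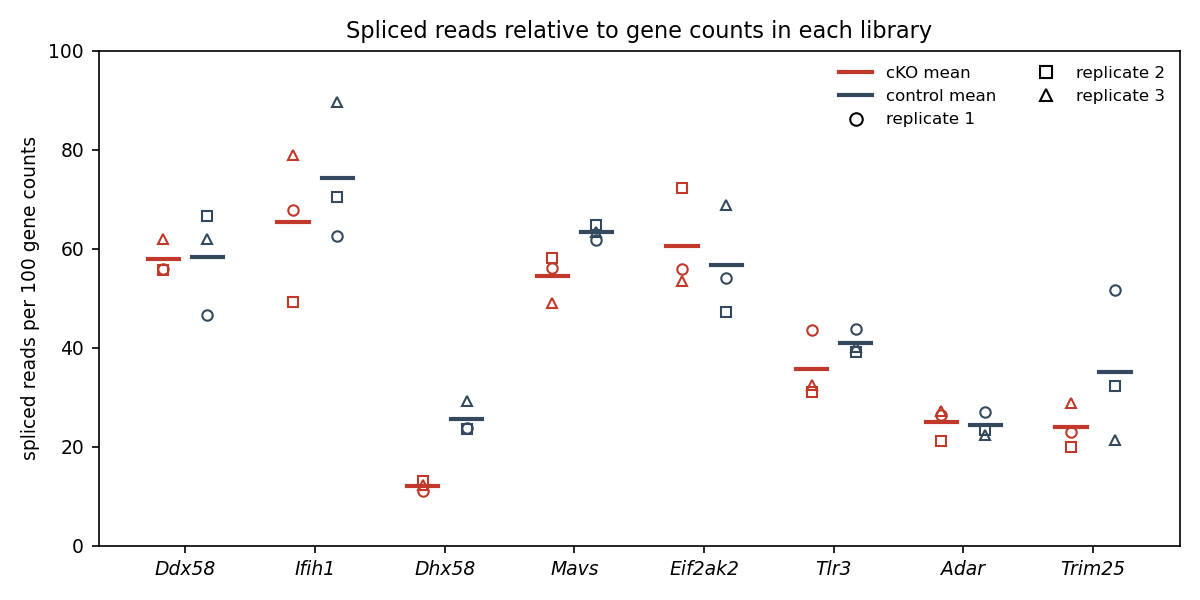
Spliced reads on annotated introns per 100 gene counts for each tested member, with 1 point per library, cKO left of control, and the bar at the mean of 3. Dhx58 sits between 11.1 and 13.1 in cKO and between 23.6 and 29.2 in control, while the groups overlap in the other members except Mavs.

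Tlr3 had 265, 252 and 332 spliced reads in cKO and 339, 348 and 421 in control. Scaled to junction reads its groups lay apart downward, with a log2 fold change of -0.56 (SE 0.22; edgeR adjusted p = 0.20). Ifih1 had 222, 66 and 434 spliced reads in cKO and 87, 138 and 140 in control, which overlap as its counts do. The place of its reads along the gene also varied: the first 7 introns, a boundary chosen after the values were seen, held 57, 35 and 316 reads in cKO and 70, 82 and 88 in control. The remaining 8 introns held 165, 31 and 118 reads in cKO and 17, 56 and 52 in control. The share in the first introns was thus 25.7%, 53.0% and 72.8% in cKO and 80.5%, 59.4% and 62.9% in control, so cKO replicates 1 and 3, both above control in level, carried their reads in different stretches of the gene. Zbp1 had 39, 31 and 2 spliced reads in cKO and 0, 4 and 0 in control.

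**Figure D4:**
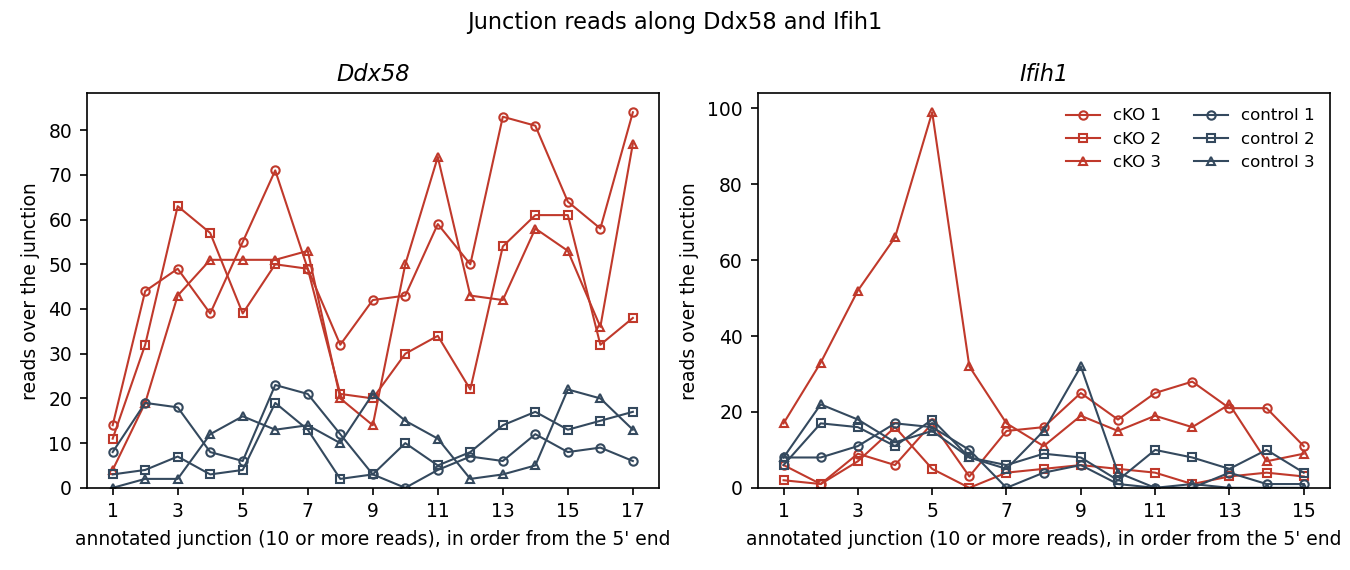
Unscaled reads over the annotated junctions of Ddx58 and Ifih1 with 10 or more reads in all, in order from the 5′ end, 1 line per library. In Ddx58 the cKO lines run above the control lines along most of the gene, and in Ifih1 the cKO replicate 3 line is high over the first introns and the cKO replicate 1 line is not.

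Since RBM17 takes part in splice site recognition, the junctions of the members were also compared one by one. The members held 147 junctions, 115 of them annotated introns, and 33 could be tested against the other junctions sharing a donor or acceptor. Of these 33, 0 passed edgeR's junction test together with a minimum change of 5 percentage points in share, where 0.751% of 112047 junctions passed. At an unadjusted p of 0.05, 4 of the 33 were reached, where 13.5% of all junctions were. Another minimum of reads or of share change, the replicate block and each library left out also gave 0. At this depth most junctions of the members have few reads, so changes in use may not have been detectable. Of the 147 junctions, 34 had reads in cKO libraries alone and 4 in control libraries alone, whereas 29.3% and 15.6% of all 419327 junctions did so.

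Eif2ak2 carried reads on unannotated junctions in every cKO library and in no control library. They numbered 27, 24 and 18 in cKO and 0, 0 and 0 in control, which is 2.01%, 1.92% and 1.62% of its cKO junction reads. Pooled, these were 69 of 3704 reads in cKO and 0 of 1685 in control, where a count of 0 allows a share of up to 0.178%. Of 13056 genes with at least 20 junction reads in every library, 1.19% shared this pattern of reads in all cKO and no control libraries. All but 1 of the cKO reads skip exons of the transcript Eif2ak2-201, which has 16 exons, and the other, in cKO replicate 3, joins an unannotated donor to exon 7. The junction from exon 1 to exon 3, which leaves out exon 2 of 132 bp (intron 78876303 to 78882399), had 8, 3 and 12 reads in cKO and 0 in each control library, and its share among competing junctions was 9.76%, 3.797% and 22.6% in the cKO libraries (edgeR adjusted p = 0.28). The junction from exon 4 to exon 8 (78869511 to 78873942), which leaves out 250 bp, had 7, 11 and 0 reads in cKO. That from exon 4 to exon 6 (78870734 to 78873942), which leaves out 121 bp, had 7, 9 and 0 reads, and that from exon 4 to exon 7 (78870536 to 78873942), which leaves out 201 bp, had 3, 1 and 4. All of them had 0 reads in the control libraries, where Eif2ak2 as a whole also had fewer junction reads.

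Other members also had unannotated junctions, some of them with reads in both groups. In Mavs such junctions held 48 of 2204 pooled reads in cKO (2.18%) and 50 of 2055 in control (2.43%). In Tlr3 they held 20 of 869 in cKO (2.30%) and 16 of 1124 in control (1.42%). In Adar they held 44 of 9058 in cKO (0.486%) and 29 of 7922 in control (0.366%). In Dhx58 an acceptor 325 bp before the annotated one was joined to exon 12 (chromosome 11, intron 100695668 to 100696114) in 3, 6 and 6 reads in cKO and 0, 0 and 0 in control, shares of 10.3%, 16.2% and 21.4% in the cKO libraries (edgeR adjusted p = 0.24). Dhx58 and Eif2ak2 were the members whose share of unannotated reads was higher in every cKO library than in every control library, as in 19.7% of the 13056 genes. In Ddx58 an unannotated exon of 85 bp in the last intron (chromosome 4, 40207009 to 40207093) was joined by 18 and 10 reads, all in cKO replicate 2. The other libraries had 0 reads there, although Ddx58 was raised in all 3 cKO libraries. In Ifih1, Zbp1 and Trim25 all junction reads lay on annotated introns.

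Adar can start at several first exons, and an interferon-inducible start is known for this gene. The upstream first exon (chromosome 3, intron 89715151 to 89734841) had 77, 19 and 42 junction reads in cKO and 30, 75 and 53 in control. The downstream first exon (intron 89730839 to 89734841), whose promoter is printed above, had 0, 7 and 0 reads in cKO and 0, 0 and 0 in control, so it was seen in cKO replicate 2 alone. A second start in the upstream region (intron 89715539 to 89734841) had 15, 0 and 1 reads in cKO and 3, 4 and 0 in control, and made up the rest of the reads on annotated first-exon introns. Unannotated junctions are left out of the shares that follow. The upstream first exon joined past exon 2 (intron 89715151 to 89737989) had 5, 14 and 3 reads in cKO and 8, 0 and 0 in control. Another upstream donor (intron 89715405 to 89734841) had 6, 0 and 0 in cKO and 0, 2 and 0 in control. The upstream exon made up 84.8% ± 12.3 of the reads on annotated first-exon introns in cKO and 95.3% ± 4.56 in control (SD, n = 3 each), which overlap. With 26 to 92 such reads per cKO library and 33 to 79 per control library, a small change in start use was not detectable.

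Around the sensors, 10 lists of pathway genes held 143 tested genes, of which 9 rose and 3 fell, with a median log2 fold change of 0.19. These 12 are 8.39% of the genes, near the 7.87% called among all genes, so the lists as a whole did not stand out by their count. Among the 9 that rose, Oas1b, Oasl1, Mx1 and Ifi204 passed the filter on low counts through their cKO libraries alone. Such genes could be called only upward, and they add to the medians of their lists. With a filter of at least 50 counts in 3 libraries, which they do not pass, 8 pathway genes were called. Counts of the lists at an unadjusted p of 0.05 stand beside at least 2778 and fewer than 4642 of all 16067 genes. Those by DESeq2 stand beside 1071 of all genes called upward and 1036 downward. Of 22 tested genes of signalling below MAVS, 0 rose and 1 fell, the kinase gene Ikbkb at 31.3 ± 3.26 CPM in cKO and 51.6 ± 4.92 CPM in control (SD, n = 3; log2 fold change -0.72, edgeR adjusted p = 0.0041), and the list's median was 0.07. At an unadjusted p of 0.05 this list had 4 genes higher and 3 lower, and DESeq2 called 1 upward and 2 downward. Of 19 regulators of RIG-I and MDA5, 0 passed (edgeR; 1 higher and 2 lower at an unadjusted p of 0.05, and 1 upward by DESeq2), with a median of 0.01. Its most abundant genes were the phosphatase gene Ppp1cc at 292.7 CPM in cKO and 327.4 in control and the helicase gene Ddx3x at 228.0 CPM in cKO and 220.9 in control. Of 11 endosomal receptor and adaptor genes, 0 passed (edgeR; 4 higher and 0 lower at an unadjusted p of 0.05, and 2 upward by DESeq2), with a median of 0.52. Their most abundant genes, the chaperones Hsp90b1 and Cnpy3, stood at 241.0 and 29.3 CPM in cKO and at 257.8 and 34.1 CPM in control.

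Other double-stranded RNA pathways held both raised and lowered genes. Of 9 tested genes of the OAS and RNase L pathway, which degrades RNA after sensing, 3 rose and 0 fell, with a median of 1.43. Of these 3, Oas1b and Oasl1 were kept by the filter on low counts through cKO alone. Oas1b had 52, 42 and 29 counts in cKO and 0, 3 and 1 in control (ratio of pooled counts 26.9, 95% counting interval 10.2 to 100.3), and Oasl1 had 29, 41 and 70 counts in cKO and 0, 3 and 3 in control. Oasl2 stood at 8.48, 3.95 and 3.58 CPM in cKO and at 1.39, 1.24 and 2.81 CPM in control (log2 fold change 1.56, edgeR adjusted p = 0.044). Of 11 genes of the eIF2 alpha kinases and their partners, the family of PKR, 1 rose and 0 fell, Eif2ak3 (PERK) at 27.6 ± 3.21 CPM in cKO and 19.2 ± 2.31 CPM in control (SD, n = 3; log2 fold change 0.53, edgeR adjusted p = 0.036). The list's median was 0.21. Of 15 genes that bind, edit or process double-stranded RNA, 0 rose and 2 fell, with a median of -0.06. They were the microRNA processing nucleases Drosha, at 84.2, 89.9 and 84.8 CPM in cKO and 187.1, 154.9 and 156.5 CPM in control (log2 fold change -0.95, edgeR adjusted p = 5.4e-04), and Dicer1, at 75.5 ± 5.20 CPM in cKO and 105.8 ± 10.3 CPM in control (SD, n = 3; log2 fold change -0.49, edgeR adjusted p = 0.018). Of 5 cell death partners of ZBP1, 0 passed (edgeR; 3 higher and 0 lower at an unadjusted p of 0.05, and 2 upward by DESeq2), with a median of 0.32. The most abundant of them were the caspase regulator gene Cflar at 18.5 CPM in cKO and 14.8 in control and Casp6 at 2.44 CPM in cKO and 2.12 in control.

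Of 12 cytosolic DNA sensing genes, 1 rose and 0 fell, Ifi204 with 197, 24 and 134 counts in cKO and 2, 2 and 6 in control (edgeR adjusted p = 0.014), and the median was 0.38. DESeq2 called 1 upward and 1 downward in this list. Of 16 interferon, receptor and signalling genes, 1 rose and 0 fell, the transcription factor gene Irf9 at 6.89 ± 1.27 CPM in cKO and 4.04 ± 0.163 CPM in control (SD, n = 3; log2 fold change 0.77, edgeR adjusted p = 0.032), and the median was 0.07. DESeq2 called 3 upward and 0 downward in this list. The interferon genes Ifnb1, Ifna1, Ifna2, Ifna4 and Ifng had 0 counts in all 6 libraries, which allows a level of up to 0.0184 to 0.0229 CPM (3 counts in a library). Of 23 interferon-stimulated effector genes, 3 rose and 0 fell, with a median of 0.89. DESeq2 called 8 of them upward and 0 downward, and at an unadjusted p of 0.05 edgeR had 12 higher and 1 lower. Mx1 had 81, 49 and 48 counts in cKO and 0, 0 and 0 in control, at least 51.9-fold higher, taking 3 counts over the 3 control libraries as the floor. The chemokine gene Cxcl10 stood at 3.06, 2.68 and 1.07 CPM in cKO and at 0.0763, 0.0209 and 0.324 CPM in control (log2 fold change 4.01, edgeR adjusted p = 0.016). Ifit2 stood at 5.84 ± 1.59 CPM in cKO and 2.60 ± 0.965 CPM in control (SD, n = 3; log2 fold change 1.17, edgeR adjusted p = 0.046).

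These calls differed in how they held in other fits. Those of Ikbkb, Drosha and Mx1 held in all 6 fits that left out 1 library. That of Cxcl10 was lost without cKO replicate 1, and those of Oas1b, Oasl1 and Ifit2 without any one of the 6 libraries. Irf9 was called without cKO replicate 2 and not in the other fits, and Oasl2 without control replicate 3 and not in the others. Ifi204 was lost without control replicate 2, cKO replicate 1 or cKO replicate 3, Dicer1 without control replicate 2, cKO replicate 2 or cKO replicate 3, and Eif2ak3 without control replicate 1 or 2 or cKO replicate 1 or 2. With limma-voom the calls of Ifi204 (adjusted p = 0.11), Oasl2 (0.064) and Oasl1 (0.056) were lost, and with no count filter those of Oasl1 (edgeR adjusted p = 0.063) and Oas1b (0.057). In the same libraries the summed microglial markers were highest in cKO replicate 1, as were Cxcl10, Ifi204, Irf9, Ifit2, Oasl2, Oas1b and Mx1. Oasl1 was lowest in cKO replicate 1 and Eif2ak3 was highest in cKO replicate 2, and the part of those cells in these genes was not tested.

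**Figure D5:**
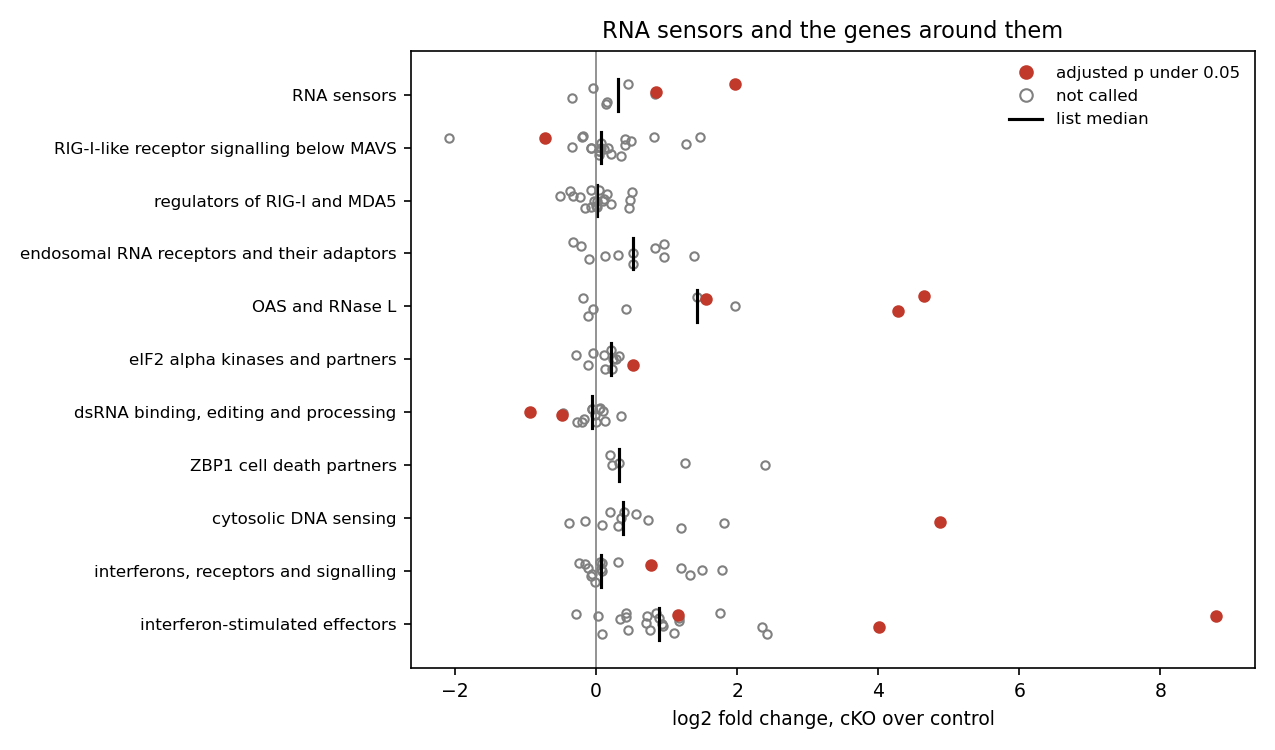
Log2 fold change (cKO over control) of every tested gene in the sensor list and the 10 pathway lists, with 1 point per gene, filled where edgeR's adjusted p is under 0.05, and the bar at the list median. The medians lie between -0.06 and 1.43, and Mx1, at the far right, is a fitted value against control libraries with 0 counts and no bound.

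The genes whose level was most like that of Ddx58 over the 6 libraries, by Pearson correlation of log2 CPM, were Dynlt1a (r = 0.999), Trps1 (0.998) and Dbpht2 (0.997). Those most like Eif2ak2 were Rnh1 (r = 0.998), Spink4 (0.997) and Med22 (0.996). The 6 points fall into the 2 genotype groups and these genes were the best of 16067, so the values describe a likeness and carry no test.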

How the data were processed

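For the 6 libraries the authors deposited 1 table of raw gene-level counts (23420 rows, not normalized) and, per library, a junction list with the count of spanning reads, which TopHat wrote per the file headers. The submitters' processing notes name TopHat2 2.1.0, the counter HTSeq 0.6.0 and the build mm10. For the annotation, the strand setting and multiply aligned reads, the choices made were not given in the sources used here. Per the labels' protocols, cDNA was amplified, so reads are not independent molecules and counting intervals and floors cover counting error only. The series' design text counts 3 animals per genotype, so n is mice.

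Genotype was tested gene by gene with a quasi-likelihood fit in edgeR 4.0.16 (R 4.3.3), after filterByExpr and TMM scaling and without covariates, with Benjamini-Hochberg adjustment over 16067 genes and a threshold of 0.05. Levels are CPM on TMM-scaled sizes, and CPM per kb divides by the union of GENCODE exons. Spliced reads on annotated introns were tested in the same way, and their ratio to gene counts with limma 3.58.1 on log2 values (pseudocount 1, mean of at least 20 reads). Both of these tests were chosen after the data were seen. Junctions (10 or more reads, in 2 or more libraries) were tested within clusters that share a donor or acceptor. Coordinates are 1-based, and those of junctions are the intron's first and last base. The gene, spliced-read, ratio and junction tests were also run on simulated counts. DESeq2 1.42.0, limma-voom, other scalings and filters, the replicate block and leaving out each library were alternatives.

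The members and lists were chosen with earlier results of these data known. Genes named are Rbm17, all members, each called pathway gene (or the 2 most abundant of a list with none), the cell markers given and the 3 genes most like each called member. The junctions named, beyond the rule that takes those with the largest share change, were chosen after their values were seen. Of 158 listed pathway symbols, 156 had a row.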

Additional observations from a re-analysis of the deposited data

How the results depend on the processing

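The calls of Ddx58 and Eif2ak2 were kept under other scalings, other count filters, removal of Rn45s, DESeq2, limma-voom and, added after seeing the data, spliced reads in place of counts, and the number of sensor genes called was 1 to 2 when each library was left out (1 without control replicate 2). Over all genes 1265 were called, with 530 to 1037 when each library was left out and 2107 by DESeq2. Pathway genes called numbered 12, with 4 to 11 when each library was left out and 27 by DESeq2. The same-numbered cKO and control libraries did not deviate together (correlations of 0.045, -0.062 and 0.021). Not every library correlated best with its own number. These correlations rest on few libraries per group and cannot decide whether the numbers pair the mice. With the replicate block 1734 genes were called, against 1265 without it, and 21 pathway genes, against 12 without it. The block also gave 2 sensor genes and 0 junctions of the sensors. Junctions called stayed at 0 to 0 when each library was left out, and the upstream share of reads on annotated Adar first-exon introns in cKO was 78.4% to 90.7%. Log2 fold changes near 0 changed sign when libraries were left out, with ranges of -0.0088 to 0.23 in Mavs and -0.12 to 0.032 in Adar (turned without control replicate 1) and -0.0096 to 0.28 in Trim25 (turned without cKO replicate 1). With spliced reads Dhx58 was at -0.63, Mavs at -0.060, Adar at 0.0047 and Trim25 at -0.35; the cause was not tested. Low counts limit Zbp1 and the single junctions.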
